A study of Mus musculus with 5 samples.

Results

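The mitosis and spindle genes examined here are 43 genes that act between the onset of mitosis and the separation of the daughter cells. They were taken by symbol from the deposited expression table, which held all 43 among its 24319 named genes. The rule that lists them uses no measured value, but the members were chosen with earlier results of these data known. Expression was measured by bulk RNA-seq in 5 libraries of sorted luminal cells, which form the inner epithelial layer of mammary ducts and alveoli. The labels give the wild type genotype for 3 libraries (Lum1, Lum2 and Lum3) and the *Brca1* knockout genotype for 2 (Lum4 and Lum5), all from mammary tissue of a strain called Mixed, which the methods describe as a mixed background of C57BL/6 and 129/Sv mice. In the mouse model of the study, Cre under the MMTV promoter, active in mammary epithelium, deletes a floxed *Brca1* (MMTV-Cre; *Brca1* fl/fl), and luminal cells were sorted as live CD24-high and CD29-low cells. The study speaks of its luminal cells with RNA-seq data as BRCA1-deficient without naming the libraries meant, whereas 3 labels give wild type, and each library is named here by its label. The alleles, the age and the reproductive stage of the donor of each library are not given, the methods speak of virgin and of pregnant donors of 3 to 4 months, and one label text speaks of tumors although the source is luminal cells. The methods also name alternative sequencing platforms and read lengths for bulk RNA-seq, without saying which luminal library had which. Nothing says that the libraries came from separate mice, so a p-value here measures only the spread between these libraries, which may be technical.

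A cell enters mitosis when cyclin-dependent kinase 1 is switched on by cyclins A and B, and leaves it when the anaphase promoting complex, a ubiquitin ligase, has those cyclins and the protein securin destroyed. In between, kinetochores built on the centromeres attach chromosomes to spindle microtubules, a checkpoint delays anaphase until every chromosome is attached, and a ring of actin and myosin then cuts the cell apart. Most of these genes are transcribed late in the cell cycle, under MuvB complexes that bind a promoter element called the cell cycle genes homology region together with the transcription factors B-Myb, *Foxm1* and NF-Y. In the mammary gland, luminal cells divide most during puberty and pregnancy, and mitotic transcripts are commonly used as a readout of the dividing cells in a sample.

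The promoters of the members were read from RefSeq (GRCm38.p6), as 250 bases before to 50 bases after each annotated transcript start. Promoter entries were matched for 36 of the 43 members (38 promoters), and those of *Aurkb*, *Ccna2*, *Foxm1*, *Kif20a*, *Pbk*, *Spc24* and *Tpx2* were not used. The hexamers TTTGAA and TTTAAA, the usual forms of the cell cycle genes homology region, and the pentamer CCAAT, the core of the NF-Y site, were searched on both strands. TTTAAA is its own reverse complement, and a match of one motif may share bases with a match of another. TTTGAA or TTTAAA was present in 29 of the 36 member promoters (80.6%, against 30.6% of all 27025 genes with an entry), and CCAAT in 27 (75%, against 41.1%). Both kinds stood together in 24 (66.7%, against 12.2%), and CCAAT occurred at least 2 times in 20 (55.6%, against 13.3%). These are descriptions of letters and carry no test. The windows from 120 bases before to 30 bases after the start are printed for 8 members, 5′ to 3′ on the strand of the gene. *Ccnb1*, *Ccnb2*, *Cdk1* and *Cdc20* encode the core of the mitotic switch, and *Kif11* and *Cenpa* a motor and a histone. *Ube2c* was the most abundant member, and *Mad2l1* is shown because its promoter entry held none of the motifs. Capitals mark the hexamers and the pentamer on either strand, where TTCAAA is the first hexamer read on the other strand and ATTGG is the pentamer read in that way.

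Ccnb1 (chr13:100786457-100786606, minus strand): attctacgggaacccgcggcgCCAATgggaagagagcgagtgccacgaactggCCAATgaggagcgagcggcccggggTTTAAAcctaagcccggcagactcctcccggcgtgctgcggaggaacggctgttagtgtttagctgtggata
Ccnb2 (chr9:70421525-70421674, minus strand): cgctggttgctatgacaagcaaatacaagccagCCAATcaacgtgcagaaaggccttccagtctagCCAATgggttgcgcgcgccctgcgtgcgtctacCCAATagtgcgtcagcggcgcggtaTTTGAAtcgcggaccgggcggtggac
Cdk1 (chr10:69352883-69353032, minus strand): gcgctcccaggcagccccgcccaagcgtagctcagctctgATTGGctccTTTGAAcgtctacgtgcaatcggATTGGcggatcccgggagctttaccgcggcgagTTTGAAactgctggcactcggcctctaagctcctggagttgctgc
Cdc20 (chr4:118437314-118437463, minus strand): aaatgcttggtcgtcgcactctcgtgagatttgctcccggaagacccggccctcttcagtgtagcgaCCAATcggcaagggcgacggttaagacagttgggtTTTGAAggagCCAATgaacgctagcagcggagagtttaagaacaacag
Kif11 (chr19:37376262-37376411, plus strand): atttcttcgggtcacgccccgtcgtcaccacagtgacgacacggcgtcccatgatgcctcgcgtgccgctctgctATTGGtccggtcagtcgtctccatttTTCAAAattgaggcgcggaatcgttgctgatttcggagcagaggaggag
Ube2c (chr2:164769809-164769958, plus strand): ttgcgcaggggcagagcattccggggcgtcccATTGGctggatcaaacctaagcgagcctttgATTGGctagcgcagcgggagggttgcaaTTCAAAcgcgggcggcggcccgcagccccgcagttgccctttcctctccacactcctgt
Cenpa (chr5:30666766-30666915, plus strand): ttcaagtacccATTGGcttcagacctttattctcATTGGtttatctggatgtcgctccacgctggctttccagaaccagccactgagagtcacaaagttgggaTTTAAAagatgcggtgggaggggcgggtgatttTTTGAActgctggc
Mad2l1 (chr6:66535101-66535250, plus strand): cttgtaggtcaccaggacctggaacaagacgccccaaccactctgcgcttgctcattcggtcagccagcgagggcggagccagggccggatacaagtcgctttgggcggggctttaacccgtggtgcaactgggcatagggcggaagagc

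In these windows *Ccnb2* held 3 CCAAT matches and 1 TTTGAA match, and *Cdk1* held 2 of each. *Ccnb1* held TTTAAA in place of TTTGAA, beside 2 CCAAT matches, and *Cenpa* held 1 of each hexamer. Matches of either hexamer that began within 50 bases on either side of the start were found in 26 of the 36 member promoters (72.2%, against 9.54% of all genes). This window was not among the motif shares planned beforehand. Pairs of CCAAT matches 31 to 34 bases apart, a distance picked after the member promoters had been seen, were found in 10 of the 36 (27.8%, against 1.37%). *Melk*, *Nuf2* and *Nusap1* held no match either, like *Mad2l1*. The *Mad2l1* entry ended at base 66535270, before the GENCODE start of the gene at 66535390. Its lack of motifs therefore describes that entry and not the sequence around the GENCODE start. The *Kif2c* entry (117178723 to 117179022, minus strand) lay inside the gene, which GENCODE begins at 117182639. The plot of motif positions shows the hexamers close to the transcript start and CCAAT mostly before it.

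**Figure D1:**
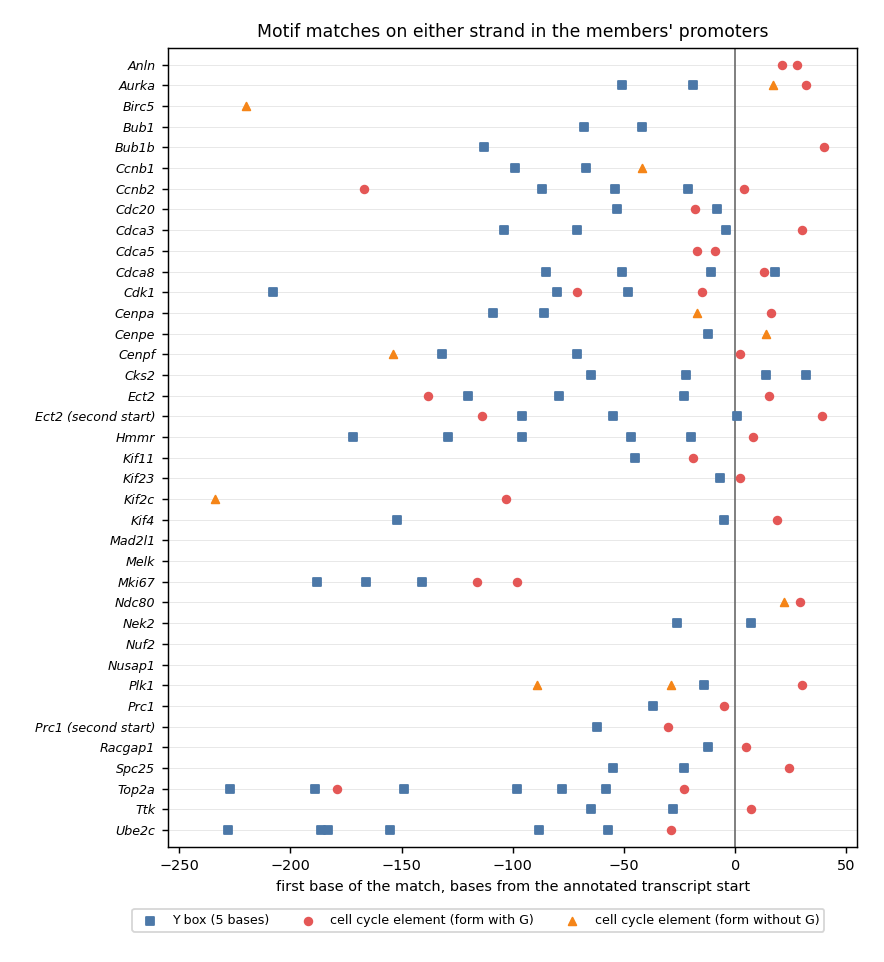
Position of motif matches in 38 RefSeq promoters of 36 members. The x axis gives the first base of a match in bases from the annotated transcript start (vertical line), squares are CCAAT, circles TTTGAA and triangles TTTAAA on either strand. Hexamer matches lie within 50 bases of the start in 26 of 36 members, while 4 members have no match of any kind.

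Expression is given as FPKM, in which the fragments of a gene are divided by its transcript length and by all mapped fragments of the library, and levels of different genes can thus be set beside each other. No read totals accompany the values. From the steps between low FPKM values, the libraries held an estimated 6180000 to 30500000 fragments, with Lum3 the deepest. Lum3 also stood apart in its cell markers. The 6 hormone-sensing luminal markers (*Esr1*, *Pgr*, *Prlr*, *Foxa1*, *Ly6a* and *Prom1*) were all highest there and summed to 336 FPKM, against 16.7 to 40.7 FPKM in the others, while the 8 markers of luminal progenitors or alveolar cells were mixed, with 4 lowest and 3 highest there. Of these 8, the casein gene *Csn2* was at 10569 FPKM in Lum3 and at 25327 to 31978 FPKM in the others, whereas *Lalba* was at 599 FPKM against 130 to 185 FPKM. The 5 general luminal markers (*Krt8*, *Krt18*, *Krt19*, *Epcam* and *Cd24a*) were abundant in every library, at 6150 to 10107 FPKM in sum. Luminal cells were thus present in each, but these markers do not show how pure a library was. Summed levels ranged from 7.38 to 129 FPKM for 6 basal markers, from 30 to 947 FPKM for 7 leukocyte markers, from 3 to 109 FPKM for 6 fibroblast markers and from 0.423 to 8.76 FPKM for 4 endothelial markers, with the leukocyte and fibroblast sums highest in Lum2. *Cd3e* and *Kdr* were listed at 0 in Lum1 and Lum4, *Itgam* at 0 in Lum1 and *Prom1* at 0 in Lum4, and *Cd3e*, *Kdr* and *Trp63* stayed under 1 FPKM in every library. The sum over 3 pericyte markers was 0.375 to 1.7 FPKM, over 4 erythroid markers 2.04 to 14.1 FPKM and over 8 genes of dissociation stress 2802 to 5194 FPKM. Their part in the results on the members was not tested. *Brca1* itself was at 1.3, 1.32 and 0.234 FPKM in Lum1, Lum2 and Lum3 and at 1.2 and 1.34 FPKM in Lum4 and Lum5. Its level was thus alike under both labels except in Lum3 (limma log2 fold change 0.27 ± 0.38 (SE), Benjamini-Hochberg adjusted p = 0.94, and -0.03 without Lum3), although a gene-level FPKM does not show a deleted part.

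The mitosis and spindle genes were expressed in 4 of the libraries and far lower in the fifth. Their median level was 4.59 FPKM in Lum1, 4.82 in Lum2, 0.504 in Lum3, 9.11 in Lum4 and 10.6 in Lum5. All 43 members were lowest in Lum3, as were 51.9% of the 11481 genes that averaged 1 FPKM or more. All 43 reached 1 FPKM in each of Lum1, Lum2, Lum4 and Lum5, and 10 did so in Lum3. Over all 24319 genes, 11135 reached 1 FPKM in Lum3, against 10979 (Lum1) to 11336 (Lum2) in the others. The summed level of the members was 322, 326 and 36.5 FPKM in the wild type libraries and 501 and 657 FPKM in the *Brca1* knockout libraries. The lowest of the other libraries exceeded Lum3 by a median of 11.5 times, from 1.59 times for *Spc25* to 31.1 times for *Melk*. By the estimate from low FPKM steps Lum3 was the deepest library, and these low values rested on an estimated median of 49.3 fragments per member. That figure depends on a step fitted to the values. It also takes the longest annotated transcript of each gene, which can overstate it. In a bulk sample, fewer dividing cells and less of these transcripts per cell cannot be told apart.

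The libraries fell into the same order for nearly every member, with Lum3 below Lum1 and Lum2, and these below Lum4 and Lum5. Both *Brca1* knockout libraries lay above all 3 wild type libraries in 40 of 43 members, as did 17.5% of all genes tested, and 0 members had both below (5.77% of all genes). The exceptions were *Cks2*, *Bub1* and *Kif2c*, in which 1 wild type library exceeded Lum4. Within the knockout label, Lum5 exceeded Lum4 in 40 of 43 members (49.8% of all genes), by a median of 1.3 times and up to 1.94 times for *Plk1*. *Ect2*, *Nusap1* and *Spc24* were the members slightly higher in Lum4. Lum5 was the highest of all libraries in the same 40 members (21.2% of all genes). Lum2 exceeded Lum1 in 24 of 43 members (40.5% of all genes), at a median ratio of 1.05. The plot of the members by library shows Lum3 at the left end of every row.

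**Figure D2:**
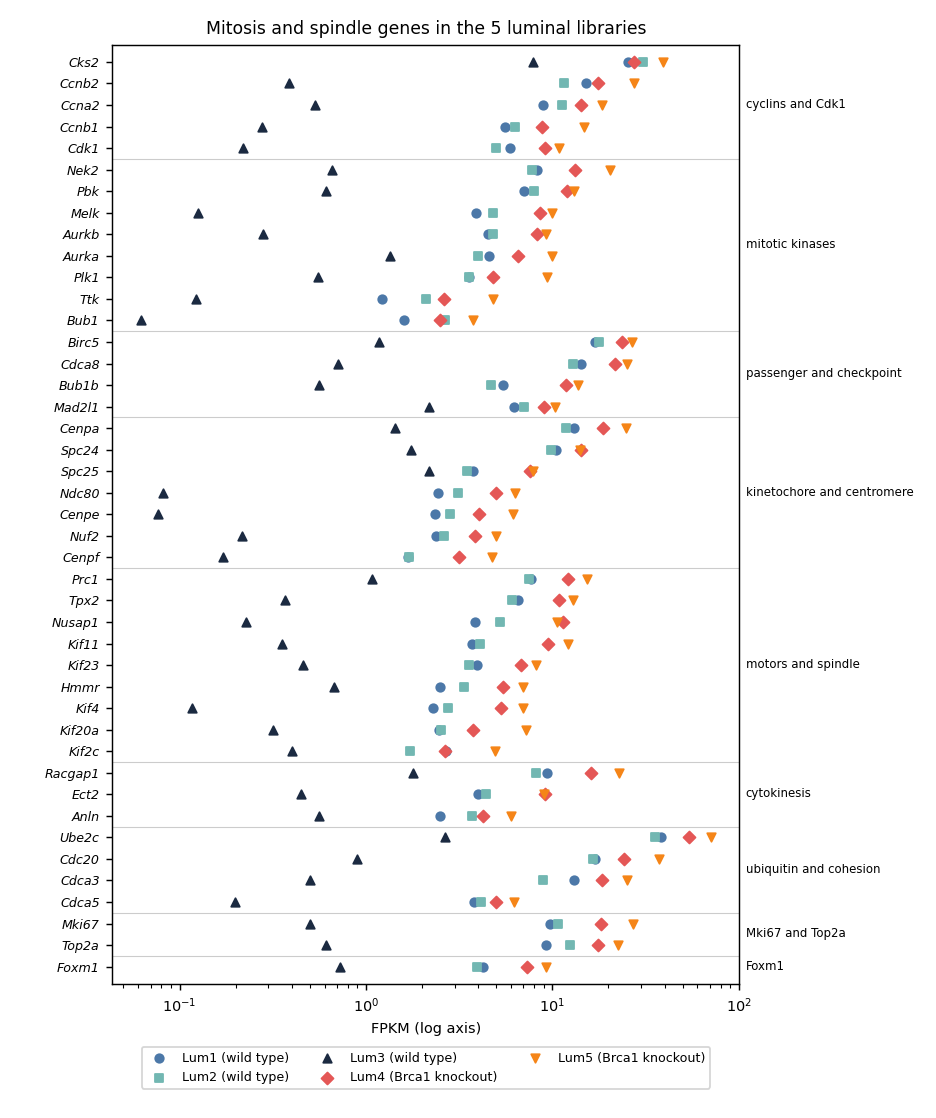
FPKM (log axis) of the 43 mitosis and spindle genes, grouped by role and ordered by mean level within a role, with 1 symbol per library. Lum3 is the lowest symbol in all 43 rows, and both Brca1 knockout libraries lie above the 3 wild type libraries in 40.

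*Ccnb1* encodes cyclin B1, which activates *Cdk1* at mitotic entry (chromosome 13, 100778650 to 100786570). It was at 5.6, 6.29 and 0.276 FPKM in Lum1, Lum2 and Lum3 and at 8.78 and 14.7 FPKM in Lum4 and Lum5. Both knockout libraries were above the wild type libraries and Lum3 was far below the rest (log2 fold change 1.65, standard error 0.83, and 0.84 (standard error 0.28) without Lum3). *Cdk1*, the kinase itself (chromosome 10, 69335146 to 69352938), was at 5.92, 4.96 and 0.219 FPKM in Lum1, Lum2 and Lum3 and at 9.11 and 10.8 FPKM in Lum4 and Lum5. The groups did not overlap (log2 fold change 1.56, standard error 0.79, and 0.76 (standard error 0.17) without Lum3). *Ccna2*, cyclin A2, needed for S phase and for mitotic entry (chromosome 3, 36564865 to 36572150), was at 8.9, 11.2 and 0.531 FPKM in Lum1, Lum2 and Lum3 and at 14.2 and 18.5 FPKM in Lum4 and Lum5, again without overlap (log2 fold change 1.60, standard error 0.94, and 0.65 (standard error 0.20) without Lum3). Its exons share 510 bases with *Exosc9* on the other strand, and reads of such pairs cannot be told apart by the kit used, which does not mark strand. *Ccnb2*, cyclin B2, lay between 0.388 FPKM in Lum3 and 27.3 FPKM in Lum5. *Cks2*, a small protein that binds *Cdk1* (chromosome 13, 51645232 to 51650660), had the smallest difference of all members. It was at 25.4, 30.5 and 7.9 FPKM in Lum1, Lum2 and Lum3 and at 27.5 and 39.2 FPKM in Lum4 and Lum5, so that Lum2 exceeded Lum4 and the groups overlapped (log2 fold change 0.80, standard error 0.59, and 0.23 (standard error 0.22) without Lum3). *Cks2* was also the member with the highest level in Lum3. The log2 fold changes of the 5 genes ran from 0.80 to 1.81, with a median of 1.60, and from 0.23 to 0.84 without Lum3.

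Among the 8 mitotic kinases, the median log2 fold change was 1.38 (range 0.92 to 1.76), or 0.78 without Lum3. *Plk1*, polo-like kinase 1, which acts in centrosome maturation, spindle assembly and cytokinesis (chromosome 7, 122159439 to 122169873), was at 3.59, 3.59 and 0.552 FPKM in Lum1, Lum2 and Lum3 and at 4.83 and 9.36 FPKM in Lum4 and Lum5. Lum1 and Lum2 were nearly equal, and Lum5 was 1.94 times Lum4 (log2 fold change 1.28, standard error 0.58, and 0.76 (standard error 0.33) without Lum3). *Aurkb*, the kinase of the chromosomal passenger complex (chromosome 11, 69045647 to 69051664), was at 4.52, 4.82 and 0.279 FPKM in Lum1, Lum2 and Lum3 and at 8.3 and 9.21 FPKM in Lum4 and Lum5, with no overlap and the knockout libraries close together (log2 fold change 1.50, standard error 0.71, and 0.78 (standard error 0.14) without Lum3). *Bub1*, a checkpoint kinase of the kinetochore (chromosome 2, 127801122 to 127831865), had the lowest mean level of all members. It was at 1.6, 2.64 and 0.062 FPKM in Lum1, Lum2 and Lum3 and at 2.51 and 3.76 FPKM in Lum4 and Lum5, an overlap of Lum2 with Lum4 (log2 fold change 0.92, standard error 0.57, and 0.41 (standard error 0.27) without Lum3). The level in Lum3 corresponds to about 6.47 fragments, the fewest of any member there. *Aurka*, the centrosomal Aurora kinase, *Nek2*, which acts in centrosome separation, the checkpoint kinase *Ttk*, and *Melk* and *Pbk*, kinases that are abundant in dividing cells, were each higher in both knockout libraries than in any wild type library. Among the kinases, *Aurka* was the highest in Lum3, at 1.34 FPKM, and *Nek2* the highest in Lum5, at 20.3 FPKM.

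The chromosomal passenger and checkpoint proteins *Birc5* (survivin), *Cdca8* (borealin), *Bub1b* (BubR1) and *Mad2l1* (Mad2) had log2 fold changes from 0.89 to 1.83. All 4 showed both knockout libraries above the wild type libraries, as did 17.5% of all genes. *Mad2l1*, which holds back *Cdc20* until chromosomes are attached (chromosome 6, 66535390 to 66547220), was at 6.24, 7.05 and 2.18 FPKM in Lum1, Lum2 and Lum3 and at 8.98 and 10.3 FPKM in Lum4 and Lum5. Its level in Lum3 was one of the least reduced (log2 fold change 0.89, standard error 0.44, and 0.47 (standard error 0.15) without Lum3). *Birc5* ranged from 1.18 FPKM in Lum3 to 26.8 FPKM in Lum5 and *Cdca8* from 0.709 to 25.2 FPKM in the same libraries. *Bub1b* was at 11.8 and 13.7 FPKM in Lum4 and Lum5, at least 2.17 times its level in Lum1 or Lum2.

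Of the 7 kinetochore and centromere genes, all had both knockout libraries above the wild type libraries (17.5% of all genes), with log2 fold changes from 1.10 to 1.57. *Cenpa*, the histone H3 variant that marks centromeres (chromosome 5, 30666777 to 30674830), was the most abundant of them, at 13, 11.9 and 1.44 FPKM in Lum1, Lum2 and Lum3 and at 18.8 and 24.7 FPKM in Lum4 and Lum5. The groups did not overlap (log2 fold change 1.57, standard error 0.81, and 0.75 (standard error 0.18) without Lum3). *Ndc80*, the subunit that contacts microtubules (chromosome 17, 71496100 to 71526857), was at 2.45, 3.11 and 0.0818 FPKM in Lum1, Lum2 and Lum3 and at 4.98 and 6.29 FPKM in Lum4 and Lum5. It was under 0.1 FPKM in Lum3 and ordered by label otherwise (log2 fold change 1.41, standard error 0.62, and 0.81 (standard error 0.20) without Lum3). Its complex also contains *Nuf2*, *Spc24* and *Spc25*, and the 4 subunits were not reduced alike in Lum3, at 0.0818 FPKM for *Ndc80*, 0.216 for *Nuf2*, 1.74 for *Spc24* and 2.19 for *Spc25*. *Spc25* was singled out after its values had been seen. It was at 3.75, 3.47 and 2.19 FPKM in Lum1, Lum2 and Lum3 and at 7.62 and 7.88 FPKM in Lum4 and Lum5, with the least spread within labels of any member (log2 fold change 1.10, standard error 0.25, unadjusted p = 0.00541, adjusted p = 0.92 by limma). *Cenpe*, a kinetochore motor, and *Cenpf*, a large kinetochore protein, were at 0.0768 and 0.171 FPKM in Lum3 and at 6.12 and 4.73 FPKM in Lum5.

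The 9 motor and spindle genes had a median log2 fold change of 1.46 (0.95 to 1.87), or 0.84 without Lum3. *Kif11*, the motor that pushes spindle poles apart (chromosome 19, 37376403 to 37421859), was at 3.72, 4.1 and 0.356 FPKM in Lum1, Lum2 and Lum3 and at 9.43 and 12.1 FPKM in Lum4 and Lum5. Lum4 was 2.3 times the higher of Lum1 and Lum2, the widest such gap among the members (log2 fold change 1.87, standard error 0.63, unadjusted p = 0.0281 and adjusted p = 0.92 by limma, and 1.25 (standard error 0.18) without Lum3). *Nusap1*, a microtubule binding protein, and *Kif4*, a chromosome motor, had gaps of 2.03 and 1.94 times. *Kif2c*, which takes apart microtubule ends, was the motor whose groups overlapped, at 2.68 FPKM in Lum1 and 2.66 FPKM in Lum4. *Kif20a* and *Kif23*, motors of the central spindle, *Prc1*, which bundles microtubules there, and *Tpx2* and *Hmmr*, which act in spindle assembly, were each higher in both knockout libraries than in any wild type library. Exons of *Kif20a*, *Kif4*, *Nusap1* and *Prc1* overlap *Cdc23*, *Pdzd11*, *Oip5* and *Rccd1* on the opposite strand, by 1271, 832, 172 and 911 bases. The cytokinesis genes *Anln* (anillin), *Ect2* (the exchange factor that activates RhoA at the cleavage site) and *Racgap1* (its partner) had log2 fold changes of 1.04, 1.57 and 1.66.

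The ubiquitin and cohesion genes included the member with the highest mean level and 2 of the 3 largest differences. *Ube2c*, the ubiquitin-conjugating enzyme of the anaphase promoting complex (chromosome 2, 164769898 to 164778822), had the highest mean level of the 43, at 38.4, 35.7 and 2.65 FPKM in Lum1, Lum2 and Lum3 and at 54.1 and 70.9 FPKM in Lum4 and Lum5. The groups did not overlap (log2 fold change 1.85, standard error 1.10, and 0.73 (standard error 0.17) without Lum3). Its exons share 592 bases with *Tnnc2* on the other strand. *Cdc20*, the activator of that complex (chromosome 4, 118432901 to 118437352), was at 17, 16.5 and 0.89 FPKM in Lum1, Lum2 and Lum3 and at 24.3 and 37.1 FPKM in Lum4 and Lum5, without overlap (log2 fold change 1.88, standard error 1.06, and 0.81 (standard error 0.24) without Lum3). *Cdca3*, a protein involved in mitotic entry (chromosome 6, 124829547 to 124833701), was at 13.1, 8.88 and 0.499 FPKM in Lum1, Lum2 and Lum3 and at 18.4 and 25 FPKM in Lum4 and Lum5, again without overlap (log2 fold change 1.92, standard error 0.99, and 0.92 (standard error 0.27) without Lum3). *Cdca5* (sororin), which protects sister chromatid cohesion, was lower, between 0.198 FPKM in Lum3 and 6.2 FPKM in Lum5.

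*Mki67* encodes Ki-67, the antigen most used to count dividing cells (chromosome 7, 135689784 to 135716361), and had the largest difference of the 43. It was at 9.66, 10.7 and 0.504 FPKM in Lum1, Lum2 and Lum3 and at 18.3 and 27.2 FPKM in Lum4 and Lum5. Lum3 was about 19.2 times below the next library, and Lum4 was 1.71 times the higher of Lum1 and Lum2 (log2 fold change 2.03, standard error 0.96, and 1.06 (standard error 0.23) without Lum3). *Top2a*, the topoisomerase that untangles chromosomes (chromosome 11, 98992943 to 99024189), was at 9.24, 12.5 and 0.607 FPKM in Lum1, Lum2 and Lum3 and at 17.6 and 22.6 FPKM in Lum4 and Lum5, with the libraries in the same order (log2 fold change 1.79, standard error 0.95, and 0.83 (standard error 0.22) without Lum3). *Foxm1*, the transcription factor of this gene programme (chromosome 6, 128362967 to 128376146), was at 4.22, 3.96 and 0.724 FPKM in Lum1, Lum2 and Lum3 and at 7.31 and 9.27 FPKM in Lum4 and Lum5. It was ordered by label with less reduction in Lum3 than *Mki67* or *Top2a* (log2 fold change 1.38, standard error 0.54, unadjusted p = 0.0469 and adjusted p = 0.92 by limma, and 0.86 (standard error 0.18) without Lum3). The remaining exon overlaps were those of *Foxm1* with *Tex52* and *Gm44596* (144 and 97 bases) and of *Top2a* with *Gm23451* (122 bases) on the same strand, and of *Cdc20*, *Cdca8*, *Nek2* and *Plk1* with other genes on the opposite strand (53 to 298 bases).

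To ask whether the members differed between the labels, every gene whose mean over the libraries was 1 FPKM or more entered a limma fit of log2(FPKM + 1), in which the pseudocount shrinks the differences of low genes. At an adjusted p under 0.05, 0 of 43 members passed, as did 0% of the 11481 genes in either direction, and the adjusted p of every member was 0.92. At an unadjusted p under 0.05, 11 of 43 members were higher in *Brca1* knockout, against 2.33% of all genes, and 0 were lower, against 0.915%. These 11 were *Spc25*, *Kif11*, *Hmmr*, *Bub1b*, *Cenpf*, *Kif4*, *Racgap1*, *Aurka*, *Foxm1*, *Nusap1* and *Ect2*, listed by rising p. All 43 log2 fold changes were above 0, as were 65.5% of all genes, and 39 of 43 were at least 1, against 2.39%. The median over the members was 1.50 (range 0.80 to 2.03), beside a median of 0.11 over all genes. The 95% interval reached below 0 for *Mki67* (-0.38 to 4.43) and for *Ccnb1* (-0.42 to 3.73), and lay above 0 for *Kif11* (0.29 to 3.45).

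Much of the spread within the wild type label came from Lum3, and the comparison was therefore also read without it. Without Lum3, the median log2 fold change of the members was 0.80 (0.23 to 1.25), beside 0.03 over all genes, and all 43 were still above 0, as were 54.2% of all genes. Both knockout libraries were above Lum1 and Lum2 in 40 of 43 members (23.5% of all genes), by a median of 1.48 times between the lower knockout and the higher wild type library. An unadjusted p under 0.05 with a higher level in *Brca1* knockout was reached by 34 of 43 members, against 4.76% of all genes. Yet 0 members passed an adjusted p under 0.05 (0% of all genes), the smallest adjusted p of a member being 0.675 by limma. The direction thus stood with and without Lum3, while its size was smaller without it, and no member was called in either comparison. The plot of the differences sets both fits side by side.

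**Figure D3:**
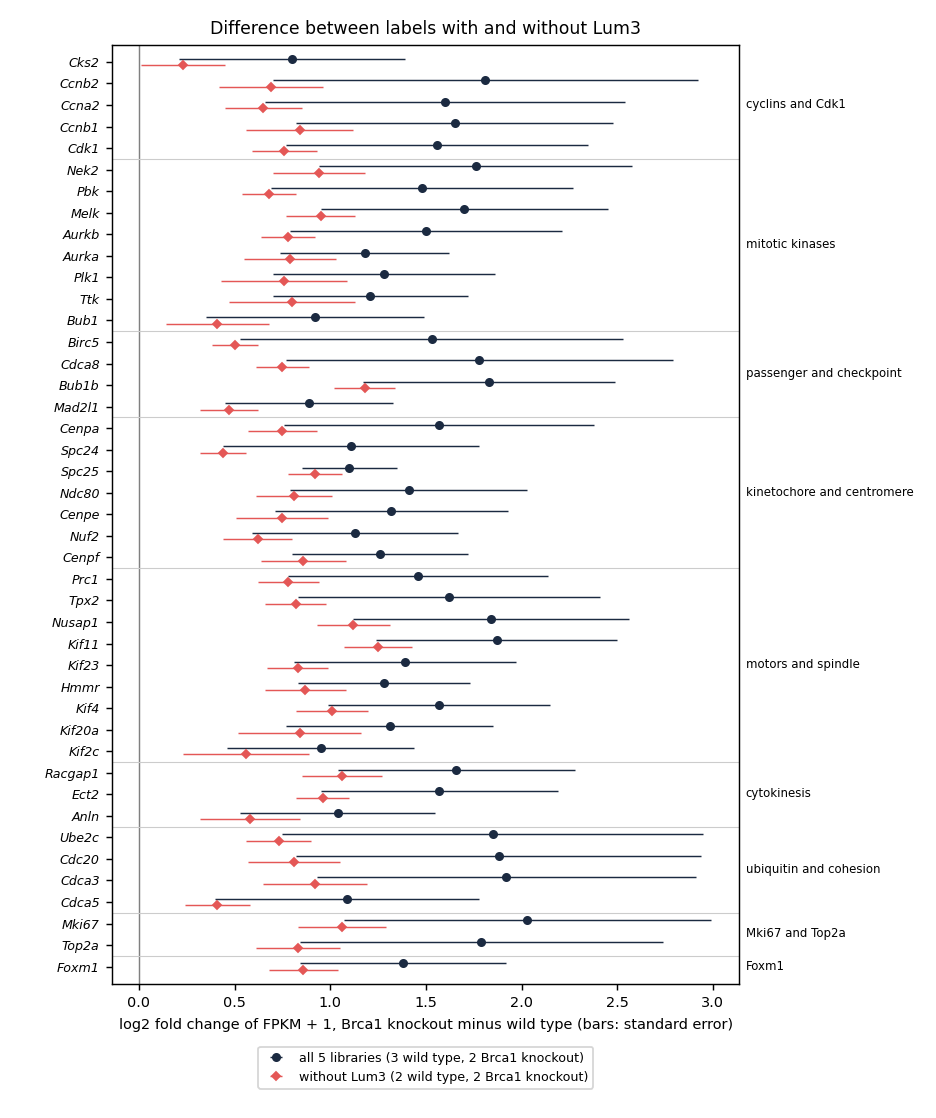
Log2 fold change of FPKM + 1 (Brca1 knockout minus wild type, bars show the standard error) for the 43 members, with all 5 libraries (circles) and without Lum3 (diamonds). All values lie above 0, the median falling from 1.50 to 0.80 and the bars shortening when Lum3 is left out.

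The members kept nearly the same order of levels among themselves in Lum1, Lum2, Lum4 and Lum5, and less so in Lum3. Spearman's rho of FPKM over the 43 members was 0.95 to 0.97 for the pairs among the former and 0.61 to 0.68 for Lum3 with each of them. These values are across genes of the same libraries, which share depth and are not independent replicates. The SD of the log2 ratio between libraries was 0.25 to 0.32 for the former pairs and 1.06 to 1.13 with Lum3. In Lum3 the members that were least below the other libraries were *Spc25*, *Mad2l1*, *Aurka*, *Cks2* and *Hmmr* (1.59 to 3.71 times below the next library). Those most below were *Melk*, *Cenpe*, *Ccnb2*, *Ndc80* and *Bub1* (25.8 to 31.1 times), both groups being named after their values had been seen. The latter rested on an estimated 6.47 (*Bub1*) to 18.5 (*Cenpe*) fragments in Lum3, and their ratios are imprecise. How far few fragments shape the rho and SD with Lum3 was not tested.

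Other genes of the division machinery were read from 8 further lists. In each list 0 genes passed the adjusted threshold in either direction. The 36 tested genes of other spindle, motor and cytokinesis genes had a median log2 fold change of 1.03 (0.58 without Lum3), with both knockout libraries above the wild type libraries in 28 (77.8%, against 17.5% of all genes). Their largest difference was that of *Iqgap3*, a scaffold protein of the cell cortex, which was at 4.33, 6 and 0.275 FPKM in Lum1, Lum2 and Lum3 and at 11 and 18.9 FPKM in Lum4 and Lum5 (log2 fold change 2.09, standard error 0.78, and 1.34 without Lum3). The 14 condensin and cohesin release genes had a median of 1.03 (0.55 without Lum3), with 12 above (85.7%). *Ncapd2*, a condensin subunit, was at 12.8, 7.99 and 2 FPKM in Lum1, Lum2 and Lum3 and at 23.9 and 26.1 FPKM in Lum4 and Lum5 (log2 fold change 1.85, standard error 0.65, and 1.22 without Lum3). The 36 other kinetochore and centromere genes had a median of 0.62 (0.27 without Lum3), with 20 above (55.6%). *Incenp*, the scaffold of the passenger complex, was at 7.41, 7.6 and 1.41 FPKM in Lum1, Lum2 and Lum3 and at 12.5 and 15.8 FPKM in Lum4 and Lum5 (log2 fold change 1.43, standard error 0.61, and 0.82 without Lum3). In these 3 lists, as for the members, nearly all genes were lowest in Lum3 (33 of 36, 13 of 14 and 33 of 36, against 51.9% of all genes).

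The 16 other mitotic entry and exit regulators had a median log2 fold change of 0.50 (0.23 without Lum3), and 5 had both knockout libraries above (31.2%, against 17.5% of all genes). *Cdc25c*, a phosphatase that activates *Cdk1*, had the largest difference and was at 2.58, 2.27 and 0.088 FPKM in Lum1, Lum2 and Lum3 and at 4.61 and 5.08 FPKM in Lum4 and Lum5 (log2 fold change 1.32, standard error 0.57, and 0.77 without Lum3). The inhibitory kinase *Wee1*, named after its values were seen, was instead highest in Lum3, at 41.7, 30.3 and 70.5 FPKM in Lum1, Lum2 and Lum3 and at 54.4 and 61.9 FPKM in Lum4 and Lum5. The 14 anaphase promoting complex subunits, which work with *Ube2c* and *Cdc20* but are made throughout the cycle, had a median of 0.13 and of 0.00 without Lum3, with 4 above (28.6%). *Anapc5* had their largest difference and was at 61.5, 63.1 and 38.2 FPKM in Lum1, Lum2 and Lum3 and at 70.5 and 75.1 FPKM in Lum4 and Lum5 (log2 fold change 0.45, standard error 0.27, and 0.22 without Lum3). All 14 were lowest in Lum3, as their partners were and as were 51.9% of all genes. Their median difference from the next library was -0.31 in log2(FPKM + 1), where that of the 43 members was -1.87. The pseudocount shrinks such differences for low genes.

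Among 20 tested regulators of mitotic transcription other than *Foxm1*, the median log2 fold change was 0.33 (0.19 without Lum3), and 7 had both knockout libraries above (35%, against 17.5% of all genes). *E2f8*, a repressor of the E2F family, had the largest difference and was at 1.85, 2.42 and 0.24 FPKM in Lum1, Lum2 and Lum3 and at 3.02 and 3.8 FPKM in Lum4 and Lum5 (log2 fold change 0.94, standard error 0.49, and 0.49 without Lum3). *Mybl2*, which encodes B-Myb, was at 2.31, 2.29 and 0.325 FPKM in Lum1, Lum2 and Lum3 and at 1.91 and 3.89 FPKM in Lum4 and Lum5, with Lum4 below Lum1. NF-Y, the factor that binds CCAAT, has 3 subunits. *Nfya* was at 8.75, 9.17 and 9.73 FPKM in Lum1, Lum2 and Lum3 and at 8.26 and 9.88 FPKM in Lum4 and Lum5, and *Nfyb* at 4.02, 4.87 and 5.83 FPKM in Lum1, Lum2 and Lum3 and at 4.87 and 5.42 FPKM in Lum4 and Lum5, both lower in Lum1 than in Lum3. *Nfyc* was lowest in Lum3, at 22.8, 21.4 and 13.9 FPKM in Lum1, Lum2 and Lum3 and at 22.9 and 26.9 FPKM in Lum4 and Lum5. *Rb1*, the retinoblastoma repressor, was highest in Lum3, at 7.97, 9.12 and 31.9 FPKM in Lum1, Lum2 and Lum3 and at 12.5 and 17.1 FPKM in Lum4 and Lum5. *Mybl2*, the NF-Y subunits and *Rb1* were named after their values had been seen. The 11 tested G1 cyclins, kinases and inhibitors had a median of 0.38 (0.13 without Lum3) and 2 had both knockout libraries above (18.2%), a share near the 17.5% of all genes. *Cdkn2c*, an inhibitor of *Cdk4* and *Cdk6*, had the largest difference and was at 3.38, 3.49 and 0.862 FPKM in Lum1, Lum2 and Lum3 and at 4.89 and 7.18 FPKM in Lum4 and Lum5 (log2 fold change 1.06, standard error 0.46, and 0.65 without Lum3).

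S phase and DNA replication genes, the part of the cell cycle programme closest in time, were read in the same way. Of 42 tested, 39 were lowest in Lum3 (92.9%, against 51.9% of all genes) and 25 had both knockout libraries above the wild type libraries (59.5%, against 17.5%). Their median log2 fold change was 0.70 (0.08 to 1.33), against 1.50 (0.80 to 2.03) for the mitotic members, and 0.30 against 0.80 without Lum3. No test compared the lists, whose genes share the same libraries. *Mcm6*, a subunit of the replicative helicase, had the largest difference and was at 24.7, 17.5 and 5.24 FPKM in Lum1, Lum2 and Lum3 and at 32.5 and 38.2 FPKM in Lum4 and Lum5 (log2 fold change 1.33, standard error 0.62, and 0.73 without Lum3). The mean log2(FPKM + 1) of the 45 replication genes in the table was 2.99, 2.97 and 1.81 in Lum1, Lum2 and Lum3 and 3.21 and 3.37 in Lum4 and Lum5, while that of the 43 members was 2.74, 2.79 and 0.73 and then 3.37 and 3.73. By this mean the members lay below the replication genes in the wild type libraries and above them in the knockout libraries, but by the median FPKM they lay below in every library, at 9.11 against 9.46 FPKM in Lum4 and 10.6 against 10.7 FPKM in Lum5. Over all 11481 genes the mean was 3.35 in Lum3 and 3.49 to 3.53 in the others.

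**Figure D4:**
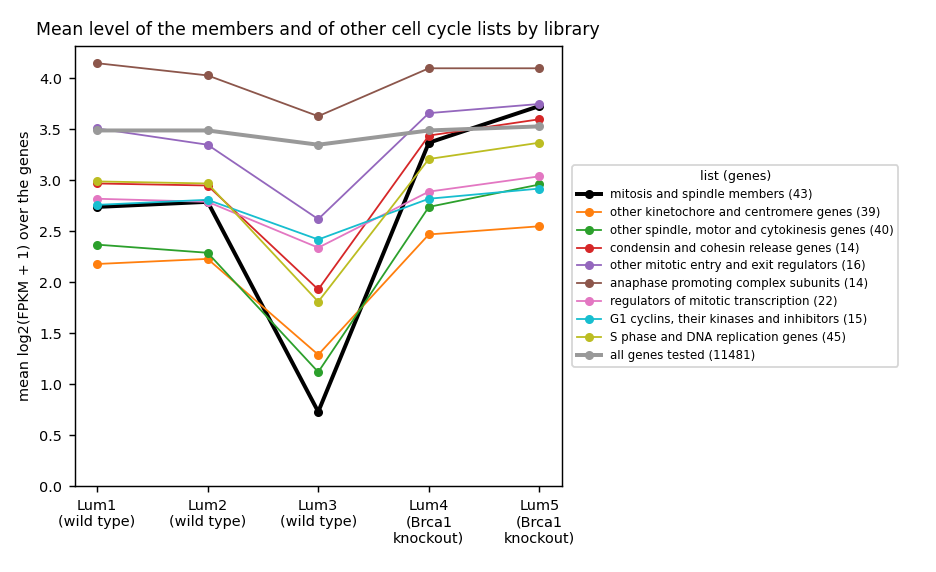
Mean log2(FPKM + 1) in each library for the 43 members (black), 8 lists of other cell cycle genes and all 11481 genes tested (grey), with the number of genes in brackets and lines that only join the values of a list. The members drop to 0.73 in Lum3, below every other list, and reach 3.37 and 3.73 in Lum4 and Lum5.

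**Figure D5:**
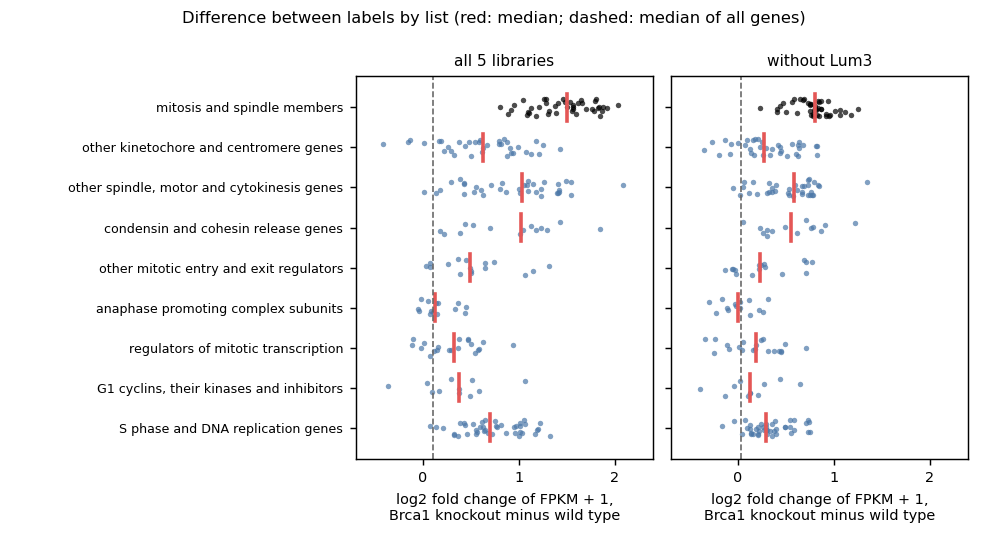
Log2 fold change of FPKM + 1 (Brca1 knockout minus wild type) of each tested gene by list, with all 5 libraries (left) and without Lum3 (right), where red bars are medians and the dashed line is the median of all genes. The medians of the members are 1.50 and 0.80, and those of the anaphase promoting complex subunits 0.13 and 0.00.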

How the data were processed

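The 5 luminal RNA-seq libraries were analysed from 1 deposited table. Per the study's methods and the submitters' processing notes, the authors trimmed reads (Trimmomatic 0.35), aligned them to mm10 with TopHat2 (2.0.13 in the notes, where the methods name another version) and deposited FPKM from Cufflinks 2.2.1, made from libraries of a kit that does not mark strand. The annotation is not given in the sources used here. Of 24346 rows, 27 whose gene name had become a date were left out. FPKM are no counts, and no count model was run for that reason. In the estimate of fragments, only 53.3% to 58.6% of low values lay near a whole multiple of 1 step. The step was fitted to these same values, and the 30% by chance would hold only for a step fixed beforehand. The 11481 genes that averaged 1 FPKM or more were compared as log2(FPKM + 1) between the 2 *Brca1* knockout and 3 wild type libraries with limma 3.58.1 (lmFit, eBayes with trend) in R 4.3.3, checked on simulated data, with Benjamini-Hochberg adjustment and a threshold of 0.05. Python 3.11.15, pandas 2.3.3 and matplotlib drew summaries. Positions come from GENCODE M21 (GRCm38), promoters from RefSeq. All members are accounted for by role. Values in every library were given for 12 preset members, the 3 largest and 3 smallest log2 fold changes, the highest and lowest mean level, and the largest difference of each further list. The leukocyte list first held a further marker, which is not reported here. The members and lists were chosen with earlier results of these data known. Alternatives were another pseudocount (0.1), other filters, 2 other scalings, limma without trend and leaving out each library.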

Additional observations from a re-analysis of the deposited data

How the results depend on the processing

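Under 11 other settings of the fit, no member passed an adjusted p under 0.05, and all 184 log2 fold changes of the 17 members given in full stayed above 0. The median log2 fold change of the members was 1.44 to 2.03 under the other filters (28 members at a mean of at least 5 FPKM), pseudocount, scalings and limma without trend, and 0.80 to 1.89 when 1 library was left out, the lowest without Lum3. Without Lum4 it was 1.62, and without Lum5 1.38. At an unadjusted p under 0.05 in either direction, members numbered 11 of 43, beside 372 of 11481 genes. Without Lum1, Lum2 and Lum3 in turn they numbered 9, 13 and 34, beside 868, 228 and 842 genes. With a pseudocount of 0.1 they numbered 4, beside 372 genes. With no filter they numbered 1 of 43, beside 877 of 24319 genes, a lower share than among all genes. Median-of-ratios scaling moved the median of all genes from 0.11 to 0.01. Over all genes, 0 were called higher and 0 lower, against 1 and 1 with no filter. Leaving out 1 library gave 0 to 18 called higher (18 without Lum4, 4 without Lum5) and 0 to 2 called lower (2 without Lum1), with 372 genes at an unadjusted p under 0.05 against 877 with no filter and 868, 228, 842, 149 and 113 without Lum1, Lum2, Lum3, Lum4 and Lum5 in turn. The median of other kinetochore and centromere genes was 1.11 with a pseudocount of 0.1, and that of G1 cyclins, their kinases and inhibitors was 0.17 with no filter and 0.13 to 0.42 when 1 library was left out, the lowest without Lum3; the causes were not tested. The mean level of the members in Lum3 was -0.67 (log2) with a pseudocount of 0.1. All 43 members were lowest in Lum3 under both other scalings. Leaving out Lum3 from the count of members with both knockout libraries above (40) was added after the data were seen. At 3 against 2 libraries and without read totals, precision is limited, and levels in Lum3 below about 0.1 FPKM rest on few fragments.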
